A study of Saccharomyces cerevisiae with 12 samples.

Results

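The small subunit processome genes of the budding yeast Saccharomyces cerevisiae were followed as a group of 47 genes among the 6713 targets of the deposited RNA-seq files. They were chosen by name as factors of 18S ribosomal RNA processing: the UTP proteins, the box C/D proteins, IMP3, IMP4, MPP10, 6 RNA helicases, NSR1 and their partners. The naming rule uses no expression value, although the group was taken up with earlier results of these data known. Poly(A) RNA was sequenced from 12 libraries of the S288c background, 3 for each of 4 genotypes. RPD3 KO (replicates 4, 12 and 20) is labelled a knockout of the histone deacetylase gene RPD3. SWI3 S237A (replicates 2, 10 and 18) and RPD3 S418A (replicates 3, 11 and 19) carry changes in SWI3, a subunit of the SWI/SNF chromatin remodeller, and in RPD3, which in the notation of the labels are serines replaced by alanine. Wild type (replicates 1, 9 and 17) is the reference of the series. All 12 libraries are labelled as grown in synthetic defined medium and were harvested at an OD600 of 0.4. A shared treatment text also speaks of caffeine for part of the samples, which the label of no single library repeats. The labels do not say how the mutants were built, whether each is 1 clone, or whether the libraries of a strain are separate cultures, so p-values measure only the spread between libraries, which may be technical.

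RPD3 was at 0 counts in all 3 RPD3 KO libraries and between 88.3 and 124.5 CPM (counts scaled to a fixed library total) in the other 9. MET17 and CAN1 were at 0 counts in all 12 libraries, mutants and wild type alike. The alpha-factor gene MF(ALPHA)1 had 543 to 1287 CPM across the 12 libraries and the a-factor gene MFA1 at most 0.647 CPM. Total estimated counts ran from 18.3 M to 27 M per library. Wild type replicate 1 stood apart from the other wild-type libraries in the processome genes. The main counts of calls and the medians are also given without it. For RPD3 KO and SWI3 S237A so are the log2 values of the members it moved by over 1.5 times.

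The small subunit processome is the large nucleolar particle in which the precursor of 18S ribosomal RNA is folded, cleaved and modified. The UTP-A and UTP-B subcomplexes bind the nascent transcript early, the U3 box C/D particle base-pairs with it, the MPP10 complex links U3 to the pre-rRNA, and helicases remodel the assembly. Genes of ribosome assembly in yeast often carry the PAC and RRPE promoter motifs. Dot6 and Tod6 bind PAC and Stb3 binds RRPE, and these repressors are known to work with the Rpd3 deacetylase complex.

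Promoter windows ran from 250 bases before to 50 bases after the start codon, in R64, from RefSeq. The letters searched were GATGAG for PAC and AAAAATTTT for RRPE, on both strands, and overlapping matches of the same motif counted once. PAC letters were present in 43 of the 47 windows (91.5%), against 20.4% of the 6001 windows of all nuclear protein-coding genes. RRPE letters were present in 29 (61.7%), against 6.98% of all windows. Both motifs were present in 28 (59.6%), against 3.58% of all windows. The 4 members shown are the ones with the largest and the smallest fold change in RPD3 KO (DHR2 and UTP22), the gene with the largest fold change in SWI3 S237A (NSR1) and a UTP-A gene with both motifs (NAN1). Each run is 200 bases, 5′ to 3′ on the gene's strand, and ends 51 bases before the start codon. Capitals mark PAC letters (GATGAG or its reverse complement CTCATC) and RRPE letters (AAAAATTTT). The runs are chrXI:288595-288794 (plus strand) for DHR2, chrVII:807707-807906 (minus strand) for NSR1, chrXVI:309960-310159 (plus strand) for NAN1 and chrVII:662108-662307 (plus strand) for UTP22.
DHR2: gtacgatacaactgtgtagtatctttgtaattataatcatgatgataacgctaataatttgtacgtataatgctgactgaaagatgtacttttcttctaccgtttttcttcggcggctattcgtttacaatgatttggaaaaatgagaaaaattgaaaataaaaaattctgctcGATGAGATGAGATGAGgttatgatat
NSR1: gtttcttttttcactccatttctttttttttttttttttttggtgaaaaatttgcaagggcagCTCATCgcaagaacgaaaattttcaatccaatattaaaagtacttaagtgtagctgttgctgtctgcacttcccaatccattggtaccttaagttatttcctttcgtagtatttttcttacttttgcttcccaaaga
NAN1: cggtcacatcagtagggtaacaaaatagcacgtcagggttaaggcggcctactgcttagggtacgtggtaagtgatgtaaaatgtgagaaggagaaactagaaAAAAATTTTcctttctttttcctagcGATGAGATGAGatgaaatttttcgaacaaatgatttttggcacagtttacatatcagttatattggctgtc
UTP22: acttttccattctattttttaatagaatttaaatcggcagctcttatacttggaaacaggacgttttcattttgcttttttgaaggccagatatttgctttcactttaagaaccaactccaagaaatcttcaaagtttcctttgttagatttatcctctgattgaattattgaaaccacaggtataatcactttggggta
In DHR2 the PAC letters overlap themselves in 1 unbroken stretch of 16 bases. NAN1 has RRPE letters followed by PAC letters, and UTP22 has neither in its window. The 28 members with both motifs had a median log2 fold change of 2.19 in RPD3 KO against wild type (range 1.41 to 3.64), and the 15 with PAC alone a median of 1.89 (1.36 to 4.35). UTP15 alone had RRPE without PAC, with a log2 fold change of 1.51. The members with neither were EMG1, UTP22 and UTP30, with a median of 1.38 (0.83 to 1.80). The ranges of the groups overlap, and the members were not chosen on these letters. The 50 PAC matches had a median position of -105 bases from the start codon, and 45 lay between -200 and -50. The 34 RRPE matches had a median position of -130.5, and 31 lay between -200 and -50.

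**Figure D1:**
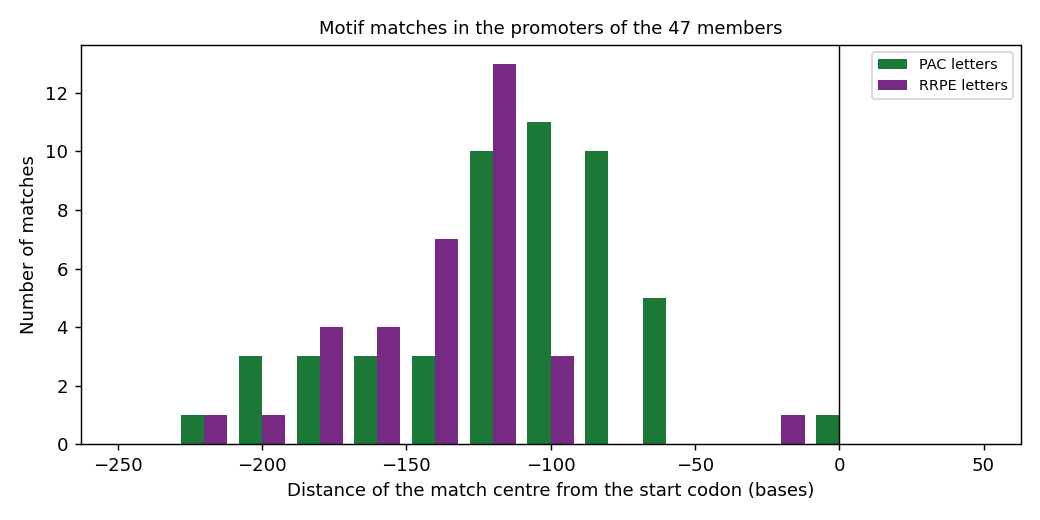
Number of PAC (green) and RRPE (purple) matches in the promoter windows of the 47 members, by distance of the match centre from the start codon in bases (0 is the start codon). The 50 PAC and 34 RRPE matches mostly lie between -200 and -50, with RRPE at a median of -130.5 and PAC at a median of -105.

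In level per length, the summed TPM (transcripts scaled by length to a fixed total) of the 47 members was 6571, 6393 and 6380 in RPD3 KO, 3547, 3248 and 3412 in SWI3 S237A, 1131, 965 and 761 in RPD3 S418A and 1805, 1072 and 1036 in wild type. The RPD3 KO libraries were highest and the SWI3 S237A libraries came next, with no overlap between them or with the other strains. The highest RPD3 S418A library lay above the wild-type replicates 9 and 17. As means the sums were 6448 ± 107 in RPD3 KO, 3402 ± 150 in SWI3 S237A, 952 ± 185 in RPD3 S418A and 1305 ± 434 in wild type (SD, n = 3 each). The SD was largest in wild type, where replicate 1 had the highest sum. In mean log2 CPM, each of the 47 members had the same order of strains: RPD3 KO, then SWI3 S237A, then wild type, then RPD3 S418A. No share of all targets with that order is at hand. The last step of that order, RPD3 S418A below wild type, did not pass the test for any member. In the fit without wild type replicate 1, RPD3 S418A lay below wild type in 39 of the 47 members. These values are shares of each library's RNA, so a change in share and a change in amount per cell, or in the mix of cells, cannot be told apart.

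**Figure D2:**
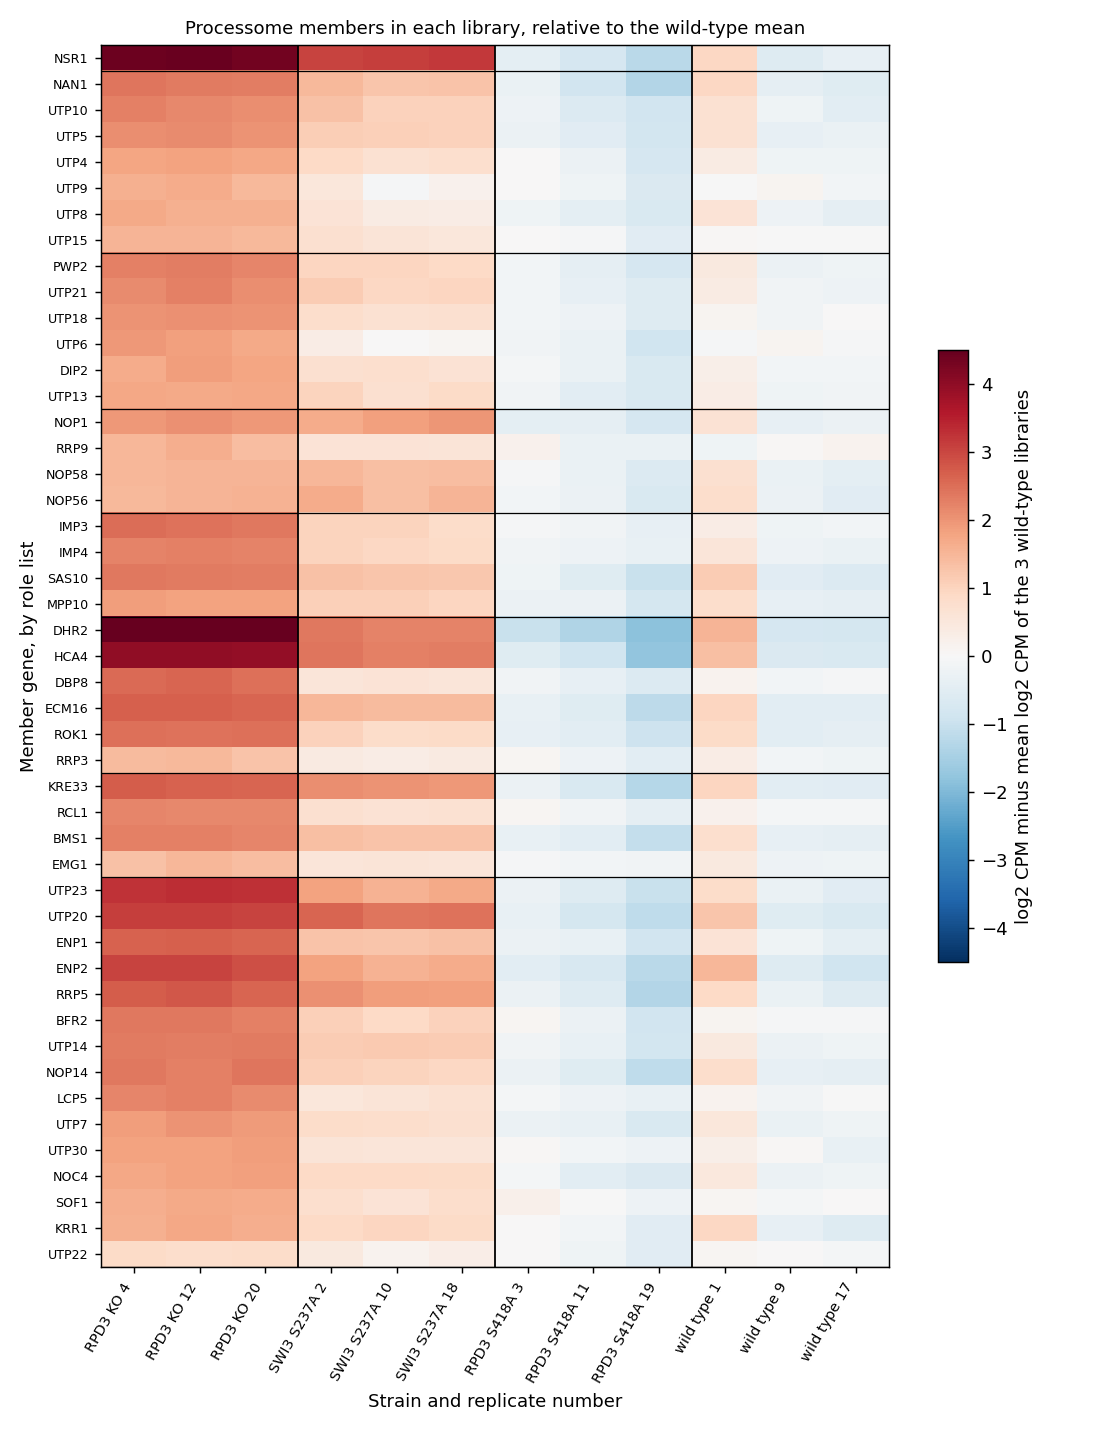
Colour gives log2 CPM of each of the 47 members (rows, by role) in each of the 12 libraries (columns, by strain and replicate number), minus the mean of the 3 wild-type libraries; values past the end of the colour bar take its end colour. RPD3 KO is darkest red in NSR1, DHR2 and HCA4, SWI3 S237A is paler, and wild type replicate 1 is redder than the other wild-type libraries in 44 of 47 rows.

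NOP1, NOP56 and NOP58 were among the 4 most abundant members per length in every strain. NSR1 averaged 1050 TPM in RPD3 KO and stood first there, ahead of NOP1 at 683 TPM. NOP1, the fibrillarin methyltransferase, stood first in the other strains, at 584 TPM in SWI3 S237A, 103 TPM in RPD3 S418A and 157 TPM in wild type. NOP58 followed NOP1 in RPD3 S418A and wild type, with 87.5 and 117 TPM. The lowest member was UTP20 at 22.3 TPM in RPD3 KO, and DHR2 at 8.66 TPM in SWI3 S237A, 0.611 TPM in RPD3 S418A and 2.13 TPM in wild type. The median member had 83.8 TPM in RPD3 KO, 36.5 TPM in SWI3 S237A, 13.9 TPM in RPD3 S418A and 17.6 TPM in wild type, beside medians over all targets of 33.0, 30.4, 27.0 and 28.2 TPM in the same order.

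In RPD3 KO against wild type, all 47 members rose, in every role class (edgeR quasi-likelihood test, Benjamini-Hochberg adjusted p under 0.05 over 6327 targets). The largest adjusted p of a member in that edgeR test was 0.00292. Of all targets tested 31.9% were called higher. At least 2-fold rises were called for 46 members, against 11.3% of all targets, and at least 4-fold rises for 26 members, against 3.29% of all targets. The median log2 fold change of the members was 2.09, beside -0.06 over all targets, and ranged from 0.83 for UTP22 to 4.35 for DHR2. In all 47 the lowest RPD3 KO library lay above the highest wild-type library, which held for 33.5% of all targets. Coordinates of genes are those of the coding region in R64. From here on values of a gene in single libraries are TMM-scaled CPM, which compare libraries and not genes, and fold changes are fitted log2 values ± SE.

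**Figure D3:**
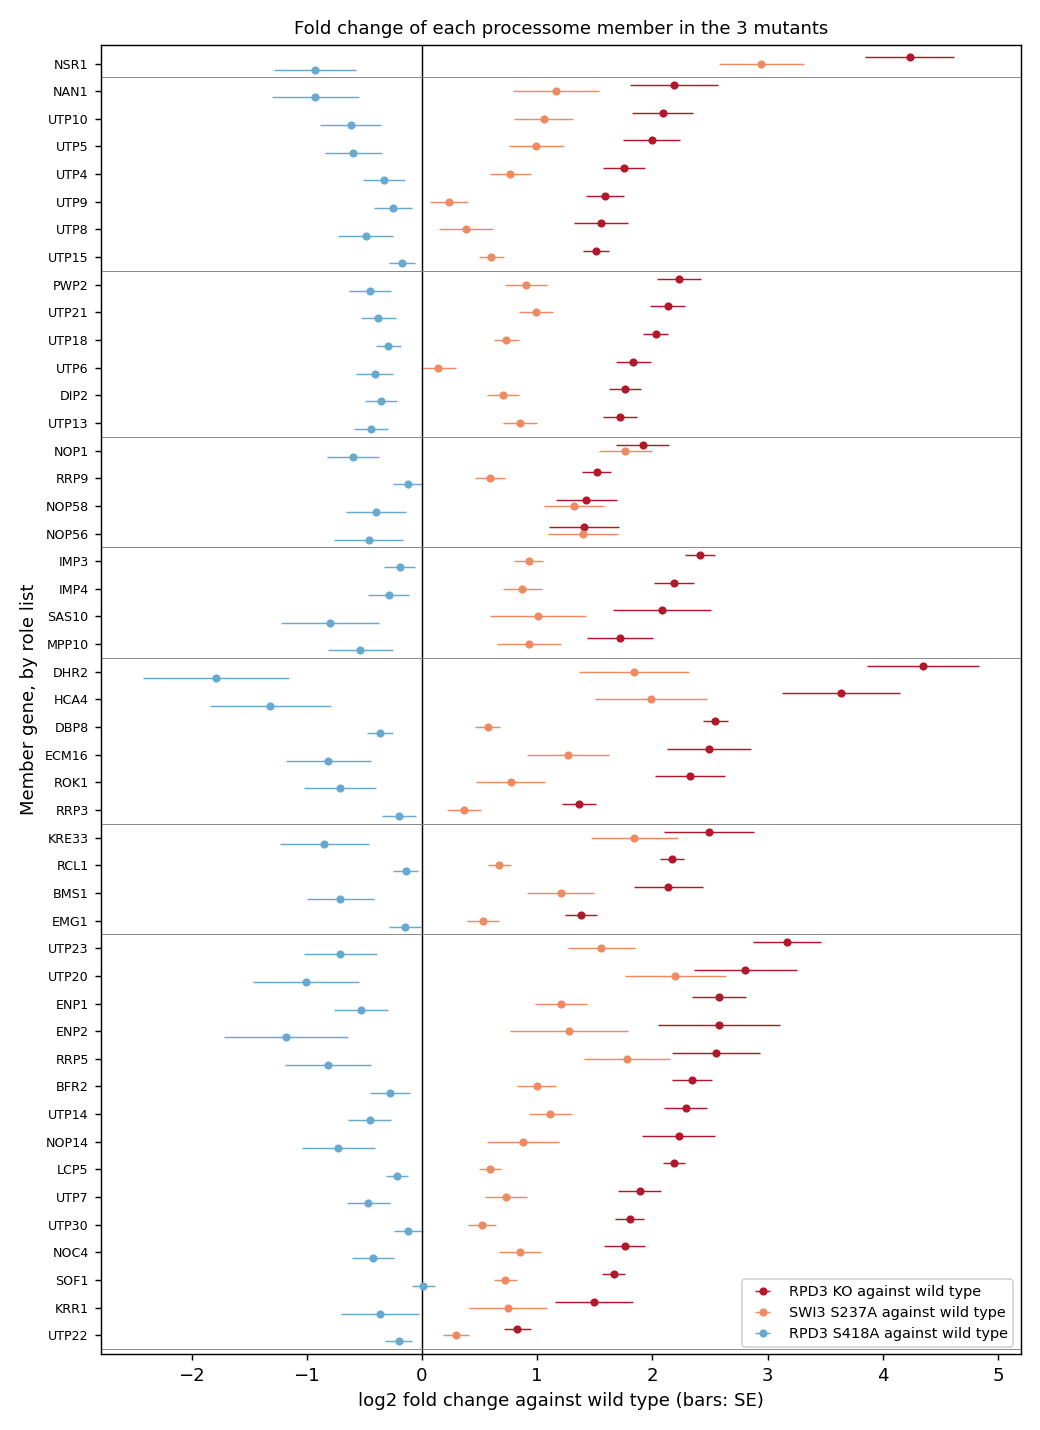
Log2 fold change against wild type (horizontal axis) of each of the 47 members (rows, by role) in RPD3 KO (dark red), SWI3 S237A (orange) and RPD3 S418A (blue), with bars of 1 SE. RPD3 KO lies right of 0 for every member, from 0.83 to 4.35, SWI3 S237A from 0.14 to 2.94, and RPD3 S418A from -1.79 to 0.01.

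NSR1 (YGR159C, chrVII:806412-807656, minus strand), a nucleolin-like protein of the nucleolus, had 1433, 1488 and 1372 CPM in RPD3 KO, 553, 594 and 610.3 CPM in SWI3 S237A, 50.3, 40.6 and 29.0 CPM in RPD3 S418A and 129.8, 45.5 and 53.2 CPM in wild type. All RPD3 KO libraries lay above all SWI3 S237A libraries, and these above all others, while RPD3 S418A and wild type overlapped. The log2 fold change against wild type was 4.23 ± 0.39 in RPD3 KO (adjusted p = 4.59e-06) and 2.94 ± 0.37 in SWI3 S237A (adjusted p = 7.67e-05), and in RPD3 S418A it was -0.93 ± 0.35 (adjusted p = 0.215). Without wild type replicate 1 these values were 4.86, 3.57 and -0.30 in the same order.

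All 6 helicases rose in RPD3 KO, with a median log2 fold change of 2.52, and 5 of them at least 4-fold. DHR2 (YKL078W, chrXI:288845-291052, plus strand), a DEAH-box helicase, had 116, 122 and 118 CPM in RPD3 KO, 22.4, 19.9 and 20.3 CPM in SWI3 S237A, 2.12, 1.67 and 1.19 CPM in RPD3 S418A and 12.4, 2.52 and 2.50 CPM in wild type. The strains did not overlap in this gene, and wild type replicate 1 lay well above the other wild-type libraries. Its log2 fold change was 4.35 ± 0.48 in RPD3 KO (adjusted p = 2.31e-05), and 5.56 without wild type replicate 1. HCA4, also called Dbp4, rose by a log2 of 3.64 ± 0.51 in RPD3 KO, and by 4.65 without wild type replicate 1. RRP3 (YHR065C, chrVIII:227532-229037, minus strand), a DEAD-box protein, had 148, 151 and 136 CPM in RPD3 KO, 74.6, 70.7 and 73.1 CPM in SWI3 S237A, 59.3, 47.8 and 40.2 CPM in RPD3 S418A and 70.3, 50.8 and 48.5 CPM in wild type. This was the smallest rise among the helicases in RPD3 KO, with a log2 of 1.36 ± 0.15 (adjusted p = 5.49e-06), and the SWI3 S237A libraries lay just above wild type replicate 1. ROK1, DBP8 and ECM16, the last also called Dhr1, had log2 values of 2.33, 2.55 and 2.49 in RPD3 KO, that of ECM16 being 3.14 without wild type replicate 1.

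All 7 UTP-A genes rose in RPD3 KO, with a median log2 fold change of 1.75. NAN1 (YPL126W, chrXVI:310210-312900, plus strand), also called UTP17, had 246, 235 and 226 CPM in RPD3 KO, 126, 109 and 113 CPM in SWI3 S237A, 37.5, 25.5 and 18.6 CPM in RPD3 S418A and 88.7, 34.9 and 31.8 CPM in wild type. Every RPD3 KO and SWI3 S237A library lay above wild type replicate 1. The log2 fold change in RPD3 KO was 2.19 ± 0.38 (adjusted p = 0.000527), the largest of the subcomplex, and 2.82 without wild type replicate 1. UTP15 (YMR093W, chrXIII:454015-455556, plus strand) had 132, 131 and 124 CPM in RPD3 KO, 74.6, 68.1 and 63.9 CPM in SWI3 S237A, 45.5, 43.2 and 31.5 CPM in RPD3 S418A and 46.8, 44.9 and 44.3 CPM in wild type. Its wild-type libraries differed little, and its log2 fold change in RPD3 KO was 1.51 ± 0.11 (adjusted p = 1.18e-07), the smallest of the subcomplex. UTP4, UTP5, UTP8, UTP9 and UTP10 lay between, from 1.56 to 2.09.

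The 6 UTP-B genes, which encode an early scaffold of the particle, spanned a narrow log2 range in RPD3 KO, from 1.72 to 2.23, and all rose. PWP2 (YCR057C, chrIII:220457-223228, minus strand), also called UTP1, had 252, 258 and 240.2 CPM in RPD3 KO, 100.4, 102 and 96.3 CPM in SWI3 S237A, 47.6, 38.8 and 30.4 CPM in RPD3 S418A and 71.0, 43.4 and 45.5 CPM in wild type. Its RPD3 KO log2 fold change was 2.23 ± 0.19 (adjusted p = 9.45e-07). UTP13 (YLR222C, chrXII:579318-581771, minus strand) had 162, 159 and 160.3 CPM in RPD3 KO, 96.1, 79.8 and 87.7 CPM in SWI3 S237A, 43.1, 34.2 and 30.1 CPM in RPD3 S418A and 60.7, 42.5 and 43.2 CPM in wild type. In both genes RPD3 KO and SWI3 S237A stood clear of wild type, and RPD3 S418A overlapped it. The RPD3 KO log2 fold change of UTP13 was 1.72 ± 0.15 (adjusted p = 7.2e-07).

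The 4 protein genes of the U3 box C/D particle rose in RPD3 KO with a median log2 fold change of 1.47, none of them 4-fold. NOP1 (YDL014W, chrIV:427364-428347, plus strand) had 814, 867 and 797 CPM in RPD3 KO, 663, 742 and 829 CPM in SWI3 S237A, 154, 158 and 123 CPM in RPD3 S418A and 323, 162 and 172 CPM in wild type. RPD3 KO and SWI3 S237A overlapped in this gene, and every RPD3 S418A library lay below every wild-type library. Its log2 fold change was 1.91 ± 0.23 in RPD3 KO (adjusted p = 2.34e-05). NOP56 (YLR197W, chrXII:546097-547611, plus strand), a core protein of box C/D particles, had 446, 467 and 475 CPM in RPD3 KO, 510.3, 407 and 461 CPM in SWI3 S237A, 149, 132 and 99.1 CPM in RPD3 S418A and 279, 132 and 112 CPM in wild type. Here too the RPD3 KO and SWI3 S237A libraries overlapped, and both lay above wild type. Its log2 fold change was 1.41 ± 0.30 in RPD3 KO (adjusted p = 0.00186). NOP58, the paired core protein, had a log2 fold change of 1.43 in RPD3 KO, and RRP9, which is specific to U3, of 1.51.

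**Figure D4:**
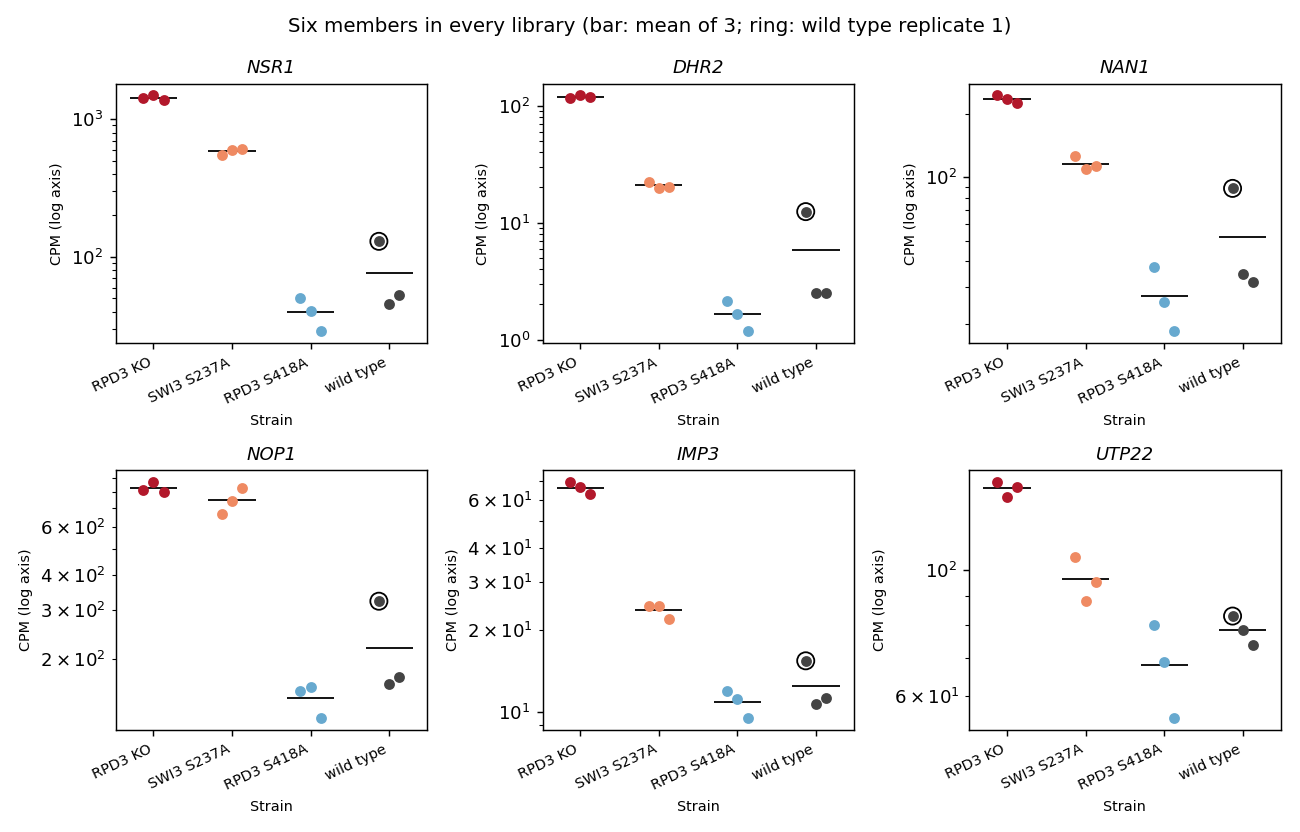
CPM of 6 members in every library on log axes, 1 panel a gene, with RPD3 KO, SWI3 S237A, RPD3 S418A and wild type from left to right. Points are libraries, bars are means of 3, and the ring marks wild type replicate 1. In NOP1 the RPD3 KO and SWI3 S237A points overlap, while in NSR1, DHR2, NAN1, IMP3 and UTP22 they do not.

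All 4 genes of the MPP10 complex list rose in RPD3 KO, with a median log2 fold change of 2.13. IMP3 (YHR148W, chrVIII:393534-394085, plus strand) had 69.6, 66.6 and 63.1 CPM in RPD3 KO, 24.6, 24.6 and 21.9 CPM in SWI3 S237A, 12.0, 11.2 and 9.54 CPM in RPD3 S418A and 15.4, 10.7 and 11.3 CPM in wild type. It had the largest rise of the complex, with a log2 of 2.41 ± 0.13 (adjusted p = 5.49e-09). MPP10 (YJR002W, chrX:438865-440646, plus strand) had 235, 227 and 223 CPM in RPD3 KO, 135, 136 and 125 CPM in SWI3 S237A, 53.1, 52.9 and 37.5 CPM in RPD3 S418A and 110.2, 49.6 and 48.2 CPM in wild type. Its wild type replicate 1 stood above the other wild-type libraries and below every SWI3 S237A library. The log2 fold change of MPP10 in RPD3 KO was 1.72 ± 0.29 (adjusted p = 0.000337). IMP4 and SAS10 had log2 values of 2.19 and 2.08, that of SAS10 being 2.91 without wild type replicate 1.

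The GTPase BMS1, its partner RCL1 and the RNA modification enzymes KRE33 and EMG1 all rose in RPD3 KO. KRE33 (YNL132W, chrXIV:375321-378491, plus strand), the RNA cytidine acetyltransferase, had 236, 227 and 219 CPM in RPD3 KO, 151, 146 and 138 CPM in SWI3 S237A, 30.0, 22.5 and 14.6 CPM in RPD3 S418A and 70.0, 26.0 and 25.3 CPM in wild type. Its log2 fold change in RPD3 KO was 2.49 ± 0.39 (adjusted p = 0.000245), and 3.15 without wild type replicate 1. EMG1 (YLR186W, chrXII:523632-524390, plus strand), a pseudouridine methyltransferase, had 159.7, 179.9 and 165 CPM in RPD3 KO, 93.4, 94.4 and 92.1 CPM in SWI3 S237A, 60.6, 57.5 and 57.3 CPM in RPD3 S418A and 85.0, 54.6 and 54.7 CPM in wild type. The RPD3 S418A libraries of EMG1 lay between wild type replicate 1 and the other wild-type libraries. Its log2 fold change in RPD3 KO was 1.38 ± 0.14 (adjusted p = 2.24e-06), and BMS1 and RCL1 had values of 2.14 and 2.17.

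The other 15 assembly factors rose in RPD3 KO with a median log2 fold change of 2.23, and held the smallest rise of the whole group. UTP23 (YOR004W, chrXV:333592-334356, plus strand), a PIN-domain protein, had 105, 109 and 106 CPM in RPD3 KO, 37.8, 32.2 and 35.0 CPM in SWI3 S237A, 9.02, 7.22 and 5.42 CPM in RPD3 S418A and 19.3, 8.82 and 7.55 CPM in wild type. Its log2 fold change in RPD3 KO was 3.16 ± 0.30 (adjusted p = 4.05e-06). UTP22 (YGR090W, chrVII:662358-666071, plus strand), which forms a subcomplex with Rrp7 and casein kinase 2, had 142, 134 and 139.9 CPM in RPD3 KO, 105, 88.3 and 95.0 CPM in SWI3 S237A, 80.0, 68.9 and 55.0 CPM in RPD3 S418A and 82.9, 78.3 and 73.6 CPM in wild type. Its strains were close together, yet RPD3 KO did not overlap wild type, and its log2 fold change was 0.83 ± 0.11 (adjusted p = 2.99e-05). UTP20, a large scaffold protein, had a log2 value of 2.81, and RRP5, which acts in both subunit pathways, of 2.55. ENP1 and ENP2 each had 2.58, and the KH-domain protein KRR1 had 1.49. Without wild type replicate 1 the RPD3 KO log2 values were 3.71 for UTP20, 3.15 for RRP5, 3.71 for ENP2 and 2.13 for KRR1.

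In SWI3 S237A against wild type, 41 of 47 members rose and none fell, against 28.7% of all targets called higher. The median log2 fold change was 0.90, beside -0.02 over all targets, with a range from 0.14 for UTP6 to 2.94 for NSR1. Of the members, NSR1 and UTP20 were raised at least 4-fold, against 1.12% of all targets, UTP20 with a log2 of 2.20 ± 0.44 (adjusted p = 0.00177). At least 2-fold rises were called for 16 members, against 6.29% of all targets. Without wild type replicate 1 this count was 31 members, with no share of all targets at hand to set beside it. In 42 members the SWI3 S237A libraries lay entirely above wild type, which held for 31.8% of all targets. The overlapping members were UTP6, UTP8, UTP9, ROK1 and KRR1.

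By role, all 6 helicases, all 4 U3 particle members and all 4 genes of the GTPase and modification class rose in SWI3 S237A. The U3 particle genes had a median log2 of 1.36, the highest of the classes with more than 1 gene, whereas in RPD3 KO theirs was the lowest such median. NOP1 had a log2 of 1.76 ± 0.23 (adjusted p = 7.09e-05) and NOP56 of 1.40 ± 0.30 (adjusted p = 0.00255). KRE33 had a log2 of 1.84 ± 0.38 (adjusted p = 0.00212) and DHR2 of 1.84 ± 0.47 (adjusted p = 0.00745). Of the UTP-A genes 5 of 7 rose, of the UTP-B genes 5 of 6, of the MPP10 complex 3 of 4 and of the other assembly factors 13 of 15. The members that missed the test were UTP6 at 0.14 (adjusted p = 0.442), UTP9 at 0.24 (0.233), UTP8 at 0.38 (0.18), KRR1 at 0.75 (0.0805), SAS10 at 1.01 (0.0607) and ENP2 at 1.27 (0.0541), all log2. For ENP2 the SWI3 S237A libraries had 83.3, 70.8 and 76.3 CPM, against 66.5, 16.0 and 12.8 CPM in wild type, so the groups did not overlap although the test was missed. UTP6 had 23.7, 19.0 and 20.2 CPM in SWI3 S237A, against 18.3, 20.6 and 18.1 CPM in wild type, which overlap. RRP3 at 0.37 ± 0.15 (adjusted p = 0.0496) and UTP22 at 0.30 ± 0.11 (adjusted p = 0.0378) were the smallest log2 rises that passed. The calls of NAN1, MPP10, RRP3 and UTP22 in SWI3 S237A were lost when single libraries were left out, with an adjusted p of up to 0.168 for RRP3 in edgeR. Without wild type replicate 1, 45 members rose (all but UTP6 and UTP9), against 30.9% of all targets called higher, and the median log2 was 1.20. The SWI3 S237A log2 values without that library were 3.57 for NSR1, 3.10 for UTP20, 3.05 for DHR2, 3.00 for HCA4, 2.50 for KRE33, 2.41 for ENP2, 2.38 for RRP5, 1.92 for ECM16, 1.83 for SAS10, 1.80 for NAN1 and 1.38 for KRR1. These 11 members, each higher than in the fit of all libraries, were the ones it moved by over 1.5 times, here and in RPD3 KO.

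SWI3 S237A was set directly against RPD3 KO in the same fit. Of the 47 members 40 fell and none rose, against 32.1% of all targets called lower, and the median log2 difference was -1.14, beside -0.02 over all targets. Leaving out any library of these strains gave 36, without NAN1 and MPP10 among them. No share of all targets is given for those fits. In 44 members every SWI3 S237A library lay below every RPD3 KO library, which held for 38.9% of all targets. The difference was largest for DHR2, at -2.51 ± 0.43 (adjusted p = 0.000562), followed by DBP8 at -1.98 and UTP6 at -1.69. All 6 helicases, all 7 UTP-A and all 6 UTP-B genes fell. NOP1, NOP56 and NOP58 were the 3 genes whose libraries overlapped. NOP1 differed by -0.15 (95% interval -0.65 to 0.35), NOP56 by -0.01 (-0.67 to 0.65) and NOP58 by -0.11 (-0.68 to 0.47), on the log2 scale. Each of these intervals lies above the members' median difference of -1.14. RRP9, the U3-specific member of the same particle, fell by 0.92 on the log2 scale. KRE33 at -0.65, UTP20 at -0.61, KRR1 at -0.75 and RRP5 at -0.77 lay entirely below RPD3 KO without passing the test. Their adjusted p in edgeR was 0.145, 0.219, 0.0746 and 0.0859 in that order. The spread in this test and in the intervals came from all 12 libraries, wild type included. The members' median SD of log2 CPM was 0.463 in wild type and 0.289 in RPD3 S418A. It was 0.0530 in RPD3 KO and 0.0763 in SWI3 S237A. A miss here therefore does not show that SWI3 S237A and RPD3 KO were alike in these genes.

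In RPD3 S418A against wild type, none of the 47 members passed in the edgeR test, against 0.822% of all targets called higher and 1.20% called lower. At an unadjusted p under 0.05 there were 23 members, but no share of all targets at that level is at hand, so nothing is read from this count. DESeq2 called 1, DHR2 (adjusted p = 0.0437). The log2 fold change was below 0 for 46 members, with SOF1 at 0.01, and the median was -0.45, beside -0.0048 over all targets. The groups overlapped in 43 members, and in UTP6, NOP1, DHR2 and DBP8 every RPD3 S418A library lay below every wild-type library, which held for 8.69% of all targets. DHR2 had the lowest value, -1.79 ± 0.63 (adjusted p = 0.194), followed by HCA4 at -1.32 and ENP2 at -1.18. Without wild type replicate 1 the median log2 was -0.16, 39 members were below 0, none passed, and DHR2 was at -0.57 (adjusted p = 0.116), HCA4 at -0.30 and ENP2 at -0.04. Leaving out that library moved 11 members by over 1.5 times in this comparison too, all upward, and only some of them are given by value. The sign changed for 7 members without that library: NOP56, NOP58, IMP4, SAS10, EMG1, UTP30 and KRR1. The title numbers form the runs 1 to 4, 9 to 12 and 17 to 20 with 1 library of each strain. RPD3 S418A lay below wild type within each run for 38 members, against 20.5% of all targets, although the labels do not say that a run was grown or prepared together.

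The other mutants were also set against RPD3 S418A in place of wild type as the reference. The filter, the scaling and the spread still came from the fit of all 12 libraries, wild type included. In RPD3 KO against RPD3 S418A all 47 members rose, against 33.3% of all targets called higher, and in all 47 the groups did not overlap, against 35.4% of all targets. The comparison had a median log2 of 2.51 and a range from 1.03 for UTP22 to 6.13 for DHR2. In SWI3 S237A against RPD3 S418A all 47 rose, against 31.9% of all targets called higher, with a median log2 of 1.35 and a range from 0.49 for UTP9 to 3.87 for NSR1. SWI3 S237A lay entirely above RPD3 S418A in 46, against 35.6% of all targets, and UTP9 overlapped. NSR1 was 3.87 higher in log2 in SWI3 S237A, DHR2 3.63, HCA4 3.31 and UTP20 3.21. The comparisons of RPD3 KO with wild type and of SWI3 S237A with RPD3 S418A set no library in common, although both were read from that 1 fit. Across the 47 members their log2 fold changes had a Pearson r of 0.81 and a Spearman rho of 0.67, and across all 6327 targets 0.42 and 0.53. Genes are not independent replicates, so these are descriptions.

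Wild type replicate 1 had the highest CPM of the 3 wild-type libraries in 44 of the 47 members, against 38.8% of all targets. It lay a median log2 of 0.80 above the mean of replicates 9 and 17, beside -0.02 over all targets. The difference was largest for DHR2 (2.27), ENP2 (2.21) and HCA4 (2.00), and smallest for RRP9 (-0.30), UTP6 (-0.07) and UTP9 (-0.00078). The libraries of RPD3 KO all lay above it in 47 members, and those of SWI3 S237A in 43. For all targets the share is at hand only against all 3 wild-type libraries, at 33.5% in RPD3 KO and 31.8% in SWI3 S237A. Without wild type replicate 1 the median log2 in RPD3 KO was 2.34, and all 47 members rose, against 32.9% of all targets called higher. RPD3 S418A also spread: replicate 3 was highest of its strain in 46 members and in 2531 of the 6327 targets. Replicate 19 was highest in none of the members and in 2495 of the 6327 targets. The median SD of log2 CPM over the members was 0.0530 in RPD3 KO, 0.0763 in SWI3 S237A, 0.289 in RPD3 S418A and 0.463 in wild type. Over all targets these medians were 0.0781, 0.0747, 0.122 and 0.137 in the same order, so the members' median was above that of all targets in RPD3 S418A and wild type and below it in RPD3 KO.

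**Figure D5:**
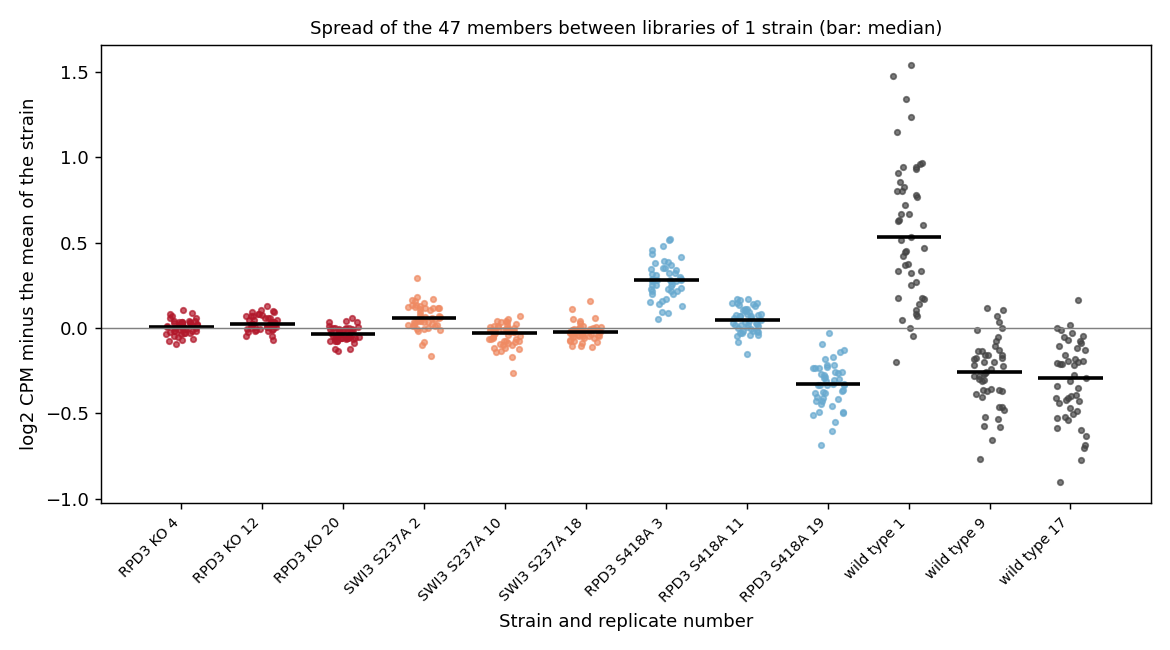
Log2 CPM of each of the 47 members in each library minus the mean of its strain (points, vertical axis), by strain and replicate number, with the median as a bar. Wild type replicate 1 has a median of 0.53 and RPD3 S418A replicates 3 and 19 have medians of 0.28 and -0.33, while the RPD3 KO and SWI3 S237A medians lie between -0.04 and 0.06.

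Outside the 47 genes, 24 other small subunit processome genes were less uniform. In RPD3 KO 20 of them rose, 1 fell and 3 did not pass, with a median log2 of 1.48. BUD22 (1.86 ± 0.10), UTP25 (2.03 ± 0.12), BUD21 (1.49 ± 0.09) and FAL1, an eIF4A-like helicase (2.89 ± 0.17), had the smallest p. The gene that fell was CKA1, which encodes a catalytic subunit of casein kinase 2, at -0.25 (adjusted p = 0.0411), and CKB1, CKB2 and SQS1 did not pass; CKA1, CKB1, CKB2 and SQS1 are named here after their values were seen. In SWI3 S237A 13 of the 24 rose and 4 fell, and in RPD3 S418A BUD22 alone was called, at -0.47 ± 0.10 (adjusted p = 0.0383). Of 12 genes of later 40S maturation, 12 rose in RPD3 KO, 11 in SWI3 S237A and none in RPD3 S418A, with median log2 values of 1.84, 0.77 and -0.42. RIO2 (1.74), RIO1 (1.89), SLX9 (1.22) and NOB1 (2.41) had the smallest p in RPD3 KO.

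Among regulators that bind processome promoters, TOD6 rose in RPD3 KO and SWI3 S237A, as the members did. TOD6 had 131, 118 and 129 CPM in RPD3 KO, 33.6, 34.2 and 32.2 CPM in SWI3 S237A, 7.31, 3.75 and 2.54 CPM in RPD3 S418A and 13.8, 5.88 and 6.02 CPM in wild type. It had the members' order of strains and a high wild type replicate 1, with log2 fold changes of 3.88 ± 0.35 in RPD3 KO (adjusted p = 4.02e-06) and 1.96 ± 0.34 in SWI3 S237A (adjusted p = 0.000698), and of -0.89 ± 0.39 in RPD3 S418A (adjusted p = 0.272). DOT6, its paralog, fell by 0.53 on the log2 scale in RPD3 KO (adjusted p = 9.51e-05), with 246, 216 and 232 CPM against 346, 320.1 and 333 CPM in wild type. STB3 was at -0.10 and SFP1, an activator of ribosome assembly genes, at 0.00 in RPD3 KO, and neither passed in any of the 3 mutants against wild type.

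Stress genes moved the other way. The summed TPM of 12 heat shock and general stress genes was 317 to 336 in RPD3 KO, 481 to 494 in SWI3 S237A, 9252 to 9659 in RPD3 S418A and 9714 to 10473 in wild type. All 12 fell in RPD3 KO and in SWI3 S237A against wild type, and none passed in RPD3 S418A, beside 38.0%, 31.3% and 1.20% of all targets called lower in the same order. Within wild type, replicate 1 had 10051 TPM of these genes, between replicate 9 at 9714 and replicate 17 at 10473, and the single genes differed. Replicate 1 was the highest wild-type library for 7 of the 12 and the lowest for 4. HSP12, a membrane stress protein, had 42.7 CPM in replicate 1, against 175 in replicate 9 and 245 in replicate 17. HSP26, a small heat shock protein, had 485, 796 and 1015 CPM in the same libraries, and CTT1, the cytosolic catalase, 109.8, 266 and 269 CPM. HSP104, a disaggregase, had 6941, 5995 and 6221 CPM, and HSP30 had 1460, 858 and 740 TPM in the same libraries. These single genes were named after their values were seen. HSP12, HSP26 and CTT1 are from those lowest in replicate 1, and HSP104 and HSP30 from those highest in it. Whether the stress gene levels of replicate 1 go together with its high processome genes was not tested. The part of a difference in growth or stress state in the members' changes was not tested.

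For 5 members an unmatched reading frame in the files lies over the same bases: on the opposite strand YGR160W over NSR1, YLR198C over NOP56, YPR136C over RRP9 and YDL152W over SAS10, and on the same strand YOR309C over NOP58. No source used here states the strand setting of the read assignment. Reads may be split within each pair, and the values of these 5 genes are uncertain to that extent. The frame took 10.3% to 11.7% of the reads of the NSR1 pair in RPD3 KO, 9.62% to 12.3% in SWI3 S237A, 10.5% to 13.2% in RPD3 S418A and 8.64% to 11.9% in wild type. The share was less even in other pairs. It was 4.26% to 8.53% in RPD3 KO, 3.36% to 4.47% in SWI3 S237A, 8.99% to 13.5% in RPD3 S418A and 7.11% to 12.9% in wild type for RRP9. For NOP58 it was 10.4% to 11.9% in RPD3 KO, 6.27% to 7.80% in SWI3 S237A, 9.55% to 12.4% in RPD3 S418A and 10.6% to 12.1% in wild type. In NOP56, RRP9 and NOP58 every SWI3 S237A library lay below every wild-type library in this share, which was at most 12.2% for NOP56 and 3.95% for SAS10 in any library. In the authors' deposited table for RPD3 KO, all 43 members with an adjusted p-value were higher at an adjusted p under 0.05, with a median log2 fold change of 2.14 over the 47. The authors' deposited table for SWI3 S237A had 30 of 43 higher, of which 29 were also called here, and a median of 0.93. The authors' deposited table for RPD3 S418A called none of 43, with a median of -0.45. No share of all targets called in the authors' deposited tables is at hand to set beside these counts. NSR1, DHR2, HCA4 and KRE33 have no adjusted p-value in the authors' deposited tables.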

How the data were processed

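Poly(A) RNA of 12 yeast libraries was sequenced with a stranded kit from 600 ng of total RNA, per the labels' protocols, and reads were processed with Trimmomatic 0.36 and kallisto 0.44.0 on R64, per the submitters' processing notes. The deposited library files hold estimated counts and TPM for 6713 targets, per the file headers. The authors' comparison tables give log2 fold changes and adjusted p-values against wild type, per the file headers. A mean signal (baseMean) and a test score (the Wald statistic) stand in the same deposited tables, which were not used, and DESeq2 is named in the submitters' processing notes.

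Estimated counts were rounded and fitted in edgeR 4.0.16 (R 4.3.3) by the robust quasi-likelihood method over all 12 libraries, scaled by TMM, after edgeR's filterByExpr on low counts had kept 6327 targets and all 47 members. The 6 comparisons between strains were read from that fit. Calls used a Benjamini-Hochberg adjusted p under 0.05 over all targets. The method was tested on simulated data. Alternatives were DESeq2 1.42.0, scaling by RLE or total counts, no filter, fits of only the strains compared, leaving out each library and, added after seeing the data, a replicate block. Total counts ran from 18.3 M to 27 M.

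Libraries were grouped by their genotype labels. Per-library values are given for NSR1, DHR2 and the members with the largest and smallest RPD3 KO change in each role list of at least 4. The members and lists were chosen with earlier results of these data known. Columns of per-library values not used numbered 0.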

Additional observations from a re-analysis of the deposited data

How the results depend on the processing

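In RPD3 KO against wild type and against RPD3 S418A all 47 members rose under each of the alternatives run, and in SWI3 S237A against RPD3 S418A between 45 and 47 rose when a library was left out and 47 under the rest. In SWI3 S237A against wild type 41 members rose, with 35 to 45 when a library was left out, 37 in a fit of only these strains, 40 without the low-count filter and 43 with DESeq2 or with total counts. Of the members given with values in every library, 4 lost their calls, RRP3 and UTP22 with the smallest rises and NAN1 and MPP10 with larger ones: RRP3 lost its call without the filter, in the fit of only these strains and without each of 5 libraries, UTP22 without wild type replicate 9 or 17 or SWI3 S237A replicate 2 or 18, NAN1 without wild type replicate 9 or 17 or SWI3 S237A replicate 2, and MPP10 in the fit of only these strains and without wild type replicate 9 or 17. In SWI3 S237A against RPD3 KO 36 members fell when any library of either strain was left out, and NAN1 and MPP10 lost their calls each time. Its median log2 of -1.14 was -1.27 with total counts only, which move the median of all targets in that comparison to -0.15 from -0.02, and -1.23 to -1.10 when a library was left out. The counts of calls up to here stand without the share of all targets called under each setting. A change in them is therefore not read as particular to the members. In RPD3 S418A against wild type DESeq2 called 1 member lower (DHR2), and leaving out a library gave 0 to 1, the call being DBP8 without RPD3 S418A replicate 3 (adjusted p = 0.0366); the median log2 ran from -0.60 to -0.16, the last without wild type replicate 1. No value that passed the test among the members given by library reversed, while 7 members of RPD3 S418A, none of which passed, changed sign without wild type replicate 1. The strains share no replicate number. With the runs of title numbers (1 to 4, 9 to 12, 17 to 20) as a replicate block, chosen after seeing the data, 47, 44 and 0 members were called in RPD3 KO, SWI3 S237A and RPD3 S418A against wild type, and medians were 2.15, 0.93 and -0.44. Of all targets 32.2% and 29.6% were called higher in RPD3 KO and SWI3 S237A, and 1.01% higher and 1.31% lower in RPD3 S418A. In that fit 47 members rose in RPD3 KO and in SWI3 S237A against RPD3 S418A, beside 33.4% and 32.2% of all targets. In SWI3 S237A against RPD3 KO 41 fell, beside 32.5% of all targets. Libraries of the same run had a correlation of deviations above 0.1 in 4 of 18 pairs, and of different runs in 4 of 36, and 2 of 12 libraries correlated best with their own run in every other strain. The causes of these differences were not tested. DHR2 had under 3 CPM in 5 libraries, which limits its precision there.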
